A study of Mus musculus with 8 samples.

Results

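Chemokines and their receptors were followed as a gene set in mouse brown adipose tissue. The set holds every row whose gene identifier maps to a protein-coding symbol that begins with Ccl, Cxcl, Ccr, Cxcr, Cx3c, Xcl, Xcr or Ackr and a digit, together with Ccrl2 and Cmklr1. These were 69 of 41388 rows. They carried 64 different symbols, 62 of the rows lay on placed chromosomes, and 44 had enough counts for testing among 16705 tested genes. Total RNA depleted of ribosomal RNA was sequenced from brown fat of 4 mice labelled wild type (WT), whose Nampt gene is flanked by loxP sites, and of 4 knockout mice (ANKO) that carry the same floxed gene and express Cre recombinase from the adiponectin promoter. Nampt encodes the enzyme that makes nicotinamide mononucleotide, a precursor of NAD. The adiponectin promoter is active in white and brown adipocytes, so the deletion is aimed at those cells and not at the leukocytes, vessels or nerves of the depot. Both groups were of the C57BL/6J strain and were kept on regular chow at room temperature, and the labels used here give neither age nor sex.

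Chemokines are small secreted proteins that direct the movement of leukocytes through G protein-coupled receptors, and they are named by the spacing of their first cysteines (CC, CXC, CX3C and XC). A receptor often binds several ligands and a ligand several receptors, while atypical receptors bind chemokines without G protein signalling and remove or store them. In adipose tissue these genes are known mainly for monocyte and lymphocyte entry, and some of them (Cxcl12, Cxcl14, Ackr3, Cmklr1) are also made by adipocytes, stromal cells or vessels.

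Many chemokine genes lie in clusters and share response elements near their start sites, so promoters were read from RefSeq (GRCm38.p6) for every member with an entry, whether or not it was called. Entries were matched by symbol for 48 of the 62 placed members. Those without one include Ccl2, Ccl4, Ccl5, Ccl7, Ccl11, Ccl24, Ccl26, Cxcl5, Cxcl16, Cxcl17, Ccr7, Ccr10 and Cxcr5. Windows of 300 bases (250 before and 50 after the start) were searched on both strands for a kappaB-type motif (GGGA, any base, TT, any base, CC), an interferon-stimulated response element (GAAA, any 2 bases, GAAA) and an interferon-gamma-activated site (TTCNNNGAA, with N for any base). Matched sites of different motifs did not overlap in the members. The stretches below show the 250 bases upstream of the start of Cxcl1, Cxcl2 and Cxcl3, which are neighbours on chromosome 5, of Cxcl10, which held a pair of these motifs, and of Ackr3, the most abundant receptor in WT, which held none. Capitals mark the matched motif, and each line reads 5' to 3' on the strand of the gene. The intervals are chr5:90890995-90891244 (plus strand) for Cxcl1, chr5:90903649-90903898 (plus) for Cxcl2, chr5:90785851-90786100 (plus) for Cxcl3, chr5:92348890-92349139 (minus) for Cxcl10 and chr1:90203730-90203979 (plus) for Ackr3.
Cxcl1: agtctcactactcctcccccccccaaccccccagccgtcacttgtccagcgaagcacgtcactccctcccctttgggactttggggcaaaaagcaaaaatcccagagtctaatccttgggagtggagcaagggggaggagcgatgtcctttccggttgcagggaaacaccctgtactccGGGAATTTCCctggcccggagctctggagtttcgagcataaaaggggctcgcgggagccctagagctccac
Cxcl2: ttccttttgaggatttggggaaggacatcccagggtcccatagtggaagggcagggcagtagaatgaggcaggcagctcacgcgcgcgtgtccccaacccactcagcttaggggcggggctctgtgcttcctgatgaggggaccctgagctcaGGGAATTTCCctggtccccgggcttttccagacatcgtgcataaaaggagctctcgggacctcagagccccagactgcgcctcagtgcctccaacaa
Cxcl3: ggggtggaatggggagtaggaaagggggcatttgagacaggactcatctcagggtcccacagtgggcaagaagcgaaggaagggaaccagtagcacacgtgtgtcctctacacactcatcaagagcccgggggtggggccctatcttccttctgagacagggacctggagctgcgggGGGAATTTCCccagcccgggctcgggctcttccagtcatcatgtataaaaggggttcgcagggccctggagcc
Cxcl10: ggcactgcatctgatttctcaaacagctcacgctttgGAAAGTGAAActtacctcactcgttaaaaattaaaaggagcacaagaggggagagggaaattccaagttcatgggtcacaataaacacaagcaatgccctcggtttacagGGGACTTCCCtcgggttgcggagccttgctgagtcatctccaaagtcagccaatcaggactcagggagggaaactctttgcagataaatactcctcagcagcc
Ackr3: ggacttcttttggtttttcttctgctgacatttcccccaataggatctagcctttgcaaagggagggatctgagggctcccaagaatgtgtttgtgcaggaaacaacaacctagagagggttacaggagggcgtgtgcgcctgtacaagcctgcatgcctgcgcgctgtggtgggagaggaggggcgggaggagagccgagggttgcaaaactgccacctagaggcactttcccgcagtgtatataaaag
The kappaB-type letters were GGGAATTTCC in Cxcl1, Cxcl2 and Cxcl3 alike and began 71, 97 and 73 bases before the start. In Cxcl10 the letters GAAAGTGAAA began 213 bases and GGGACTTCCC 103 bases upstream. The kappaB-type motif was found in 1.20% of 32851 promoters of this length and in 6 of the 48 matched members, namely Cxcl1, Cxcl2, Cxcl3, Cxcl10, Ccr3 and Ccr6. For each motif a member was counted if any of its start sites held it, while the percentages are over single promoters. Some members have several start sites, so the shares are not like for like. The interferon-stimulated element was in 3.44% of promoters and in the members Cxcl10, Cxcl14 and Ccl19. The interferon-gamma-activated site was in 8.30% of promoters and in Ccl17, Cxcl14, Ccr1l1 and Ccr6. A match describes letters and not a bound site, and the absence of a match says only that these letters are not in the window.

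The libraries held 5738067 to 49697156 counts, and the 3 smallest were all ANKO. Nampt was at 483, 484, 571 and 494 CPM (counts scaled to 1000000 per library) in WT and at 67.3, 69.4, 77.6 and 74.5 CPM in ANKO (log2 fold change -2.81, standard error 0.12, edgeR quasi-likelihood adjusted p = 1.50e-07). Summed over 10 skeletal muscle genes the level was 29.1 to 2518 CPM in WT and 8873 to 13403 CPM in ANKO, and over 10 brown adipocyte genes it was 14383 to 22337 CPM in WT and 5063 to 9269 CPM in ANKO. The part of muscle RNA in the differences below was not tested other than by adding the muscle marker level as a covariate. In bulk tissue, fewer cells of a type and less RNA per cell cannot be told apart. The design text gives 4 mice for each group and each library has its own number, so p-values are read against the spread between mice.

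Of the 44 tested members, 34 were higher in ANKO and 5 lower (Ackr3, Ackr4, Ccr10, Ccl25 and Ccl27a), and 5 were not called (Cxcl12, Cxcl14, Cxcl17, Ccl28 and Ccr9). Across all tested genes 58.2% were called, 30.6% as higher and 27.6% as lower, at an edgeR quasi-likelihood adjusted p under 0.05. In 31 members every ANKO library lay above every WT library, in 4 every one lay below, and in 9 the groups overlapped, against 28.7% above and 26.4% below over all tested genes. The median log2 fold change was 2.10 over the tested members and -0.01 over all tested genes. These counts are a description: 17 of the 44 members passed the count filter (0.423 CPM in 4 libraries) with the help of ANKO libraries and not in all 4 WT libraries, a route that favours genes with more reads in ANKO, and all 17 were called higher. Those 17 were Ccl2, Ccl3, Ccl4, Ccl5, Ccl7, Ccl8, Ccl12, Ccl22, Ccl24, Cxcl1, Cxcl2, Cxcl13, Cxcl15, Ccr1, Ccr7, Cxcr3 and Xcr1. Of the 27 members that passed it in all 4 WT libraries, 17 were higher, 5 lower and 5 not called, where all genes of that kind were 25.0% higher and 31.8% lower. Most members were of low abundance, and among tested genes with a mean below 20 CPM 38.7% were called higher and 14.9% lower.

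**Figure D1:**
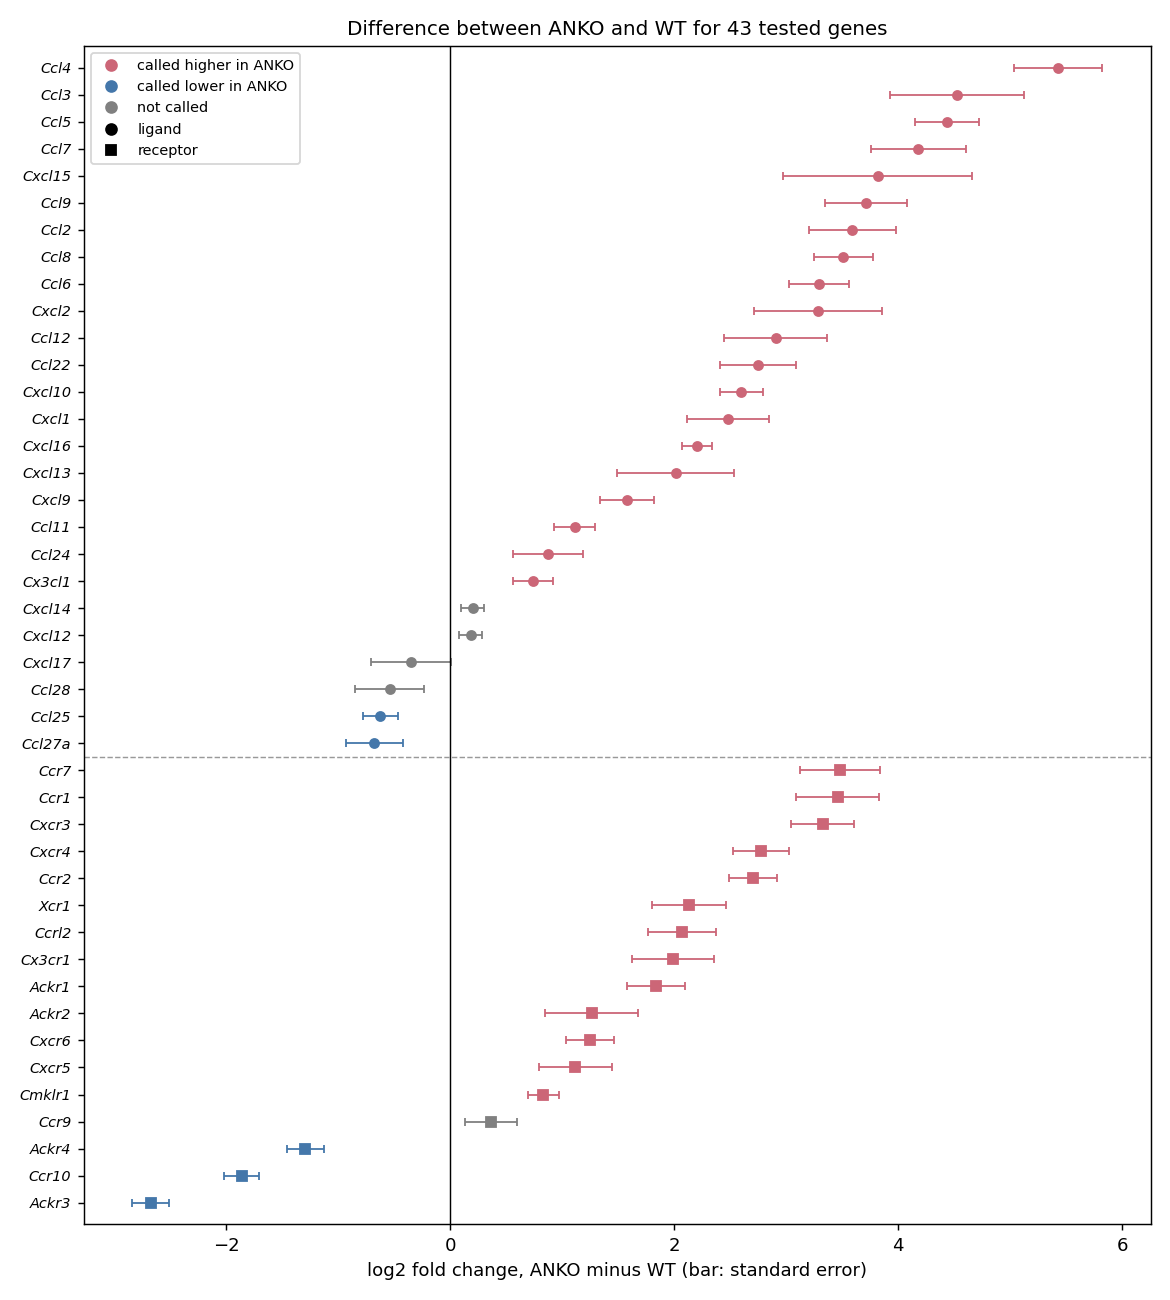
Log2 fold change of 43 tested genes, ANKO minus WT, on the horizontal axis, with bars of 1 standard error, for ligands (circles, above the dashed line) and receptors (squares, below it). Ccl4 stands highest at 5.43 and Ackr3 lowest at -2.67, and the grey points are the 5 members that were not called.

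The ligands grouped here as monocyte chemoattractants (Ccl2, Ccl7, Ccl8 and Ccl12) all rose, by 7.50-fold to 18.1-fold. They were listed as ligands of CCR2, though the receptor of mouse Ccl8 was not tested here, and they lie in one block on chromosome 11. Ccl8, the most abundant of them per gene length, was at 0.396, 0.543, 0.579 and 1.0 CPM in WT and at 8.60, 7.83, 6.99 and 6.55 CPM in ANKO. The WT libraries were all low and the groups were far apart (log2 fold change 3.51, standard error 0.27, adjusted p = 3.53e-06). Ccl2, also called MCP-1, was at 0.445, 0.310, 0.0914 and 0.227 CPM in WT and at 2.71, 2.19, 3.97 and 3.64 CPM in ANKO (log2 fold change 3.59, standard error 0.39, adjusted p = 3.53e-05). Its groups did not overlap, and neither did those of Ccl7, which averaged 0.122 ± 0.0412 CPM among WT and 2.49 ± 1.18 CPM among ANKO libraries (n = 4 each, SD; log2 fold change 4.18 with a standard error of 0.43), or of Ccl12. Ccl12, a mouse ligand of CCR2, was the weakest of the block with means of 0.0888 CPM for WT and 0.685 CPM for ANKO, and with the muscle covariate it was no longer called (2.42 on the log2 scale, adjusted p = 0.10). None of the 4 passed the count filter in every WT library.

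The macrophage inflammatory protein group, inflammatory CC ligands of myeloid and T cell receptors, held the 3 highest fold changes of the tested ligands (Ccl4, Ccl3 and Ccl5). Ccl6 and Ccl9, both ligands of CCR1 in the mouse, carried the most reads of the group. Ccl6 was at 5.59, 6.48, 7.56 and 10.5 CPM in WT and at 56.2, 53.5, 89.4 and 100.4 CPM in ANKO (log2 fold change 3.30, standard error 0.27, adjusted p = 8.29e-06). Ccl9 was at 3.36, 4.19, 5.70 and 7.64 CPM in WT and at 48.1, 44.9, 81.0 and 107 CPM in ANKO (log2 fold change 3.72, standard error 0.37, adjusted p = 4.77e-05). In both genes the groups were separate, and ANKO3 and ANKO4 were higher than ANKO1 and ANKO2.

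Ccl5 (RANTES), which attracts T cells and macrophages, was at 0.396, 0.233, 0.457 and 0.364 CPM in WT and at 9.90, 5.41, 9.73 and 6.69 CPM in ANKO (log2 fold change 4.44, standard error 0.29, adjusted p = 1.34e-06). Its lowest ANKO library was above its highest WT library by a wide margin. Ccl4 (MIP-1 beta) had 0, 1, 1 and 2 counts in the WT libraries and 44, 12, 18 and 12 counts in the ANKO libraries, means of 0.0287 and 1.63 CPM (log2 fold change 5.43, standard error 0.39, adjusted p = 2.52e-06). Ccl3, a ligand of CCR1, had 1, 2, 3 and 0 counts in WT and 25, 7, 15 and 15 in ANKO, means of 0.0546 and 1.34 CPM, with a log2 fold change of 4.53 and a standard error of 0.60. With so few WT counts the size of these folds is loosely set, and with the muscle covariate Ccl3 was no longer called (2.94 on the log2 scale, adjusted p = 0.140). Ccl3, Ccl4 and Ccl5 did not pass the count filter in every WT library, whereas Ccl6 and Ccl9 passed it in every library.

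Among the ligands listed here for the eosinophil and T helper type 2 receptors CCR3, CCR4 and CCR8, the 3 tested genes rose. Ccl11 (eotaxin), a stromal attractant of eosinophils, was already abundant in WT, at 12.2, 18.4, 14.1 and 21.3 CPM, and was at 38.4, 28.8, 33.7 and 42.2 CPM in ANKO. All ANKO libraries exceeded all WT libraries, and the difference was smaller than in the preceding groups (log2 fold change 1.11, standard error 0.18, adjusted p = 0.000525). Ccl22, a dendritic cell and macrophage product that binds CCR4, was at 0.247, 0.155, 0.0914 and 0.250 CPM in WT and at 1.26, 1.38, 1.42 and 1.02 CPM in ANKO, with no overlap (log2 fold change 2.74, standard error 0.34, adjusted p = 8.47e-05). Ccl24, eotaxin-2, overlapped between groups at 0.636 ± 0.241 CPM for WT and 1.17 ± 0.232 CPM for ANKO (n = 4 each, SD; log2 fold change 0.87, adjusted p = 0.0347). Its call did not hold in DESeq2 (adjusted p = 0.0536), with the muscle covariate (adjusted p = 0.605), or when WT1, WT3, WT4, ANKO1, ANKO2 or ANKO3 was left out. Of the untested genes of this group, Ccl17 had 24 counts in WT and 5 in ANKO (means of 0.178 and 0.0811 CPM), Ccl1 had 0 and 2 (0 and 0.0459 CPM), and Ccl26 had none. The levels of Ccl11 rest beside a fibroblast marker list whose 8 genes summed to 905 to 1307 CPM in WT and 4099 to 7672 CPM in ANKO, with 7 higher and 1 not called, and the part of fibroblasts was not tested.

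The CXC ligands that carry the ELR sequence and attract neutrophils through CXCR2 were scarce but higher in ANKO. Cxcl1 (KC) was at 0.247, 0.349, 0.274 and 0.205 CPM in WT and at 1.99, 1.04, 0.850 and 2.04 CPM in ANKO (log2 fold change 2.48, standard error 0.37, adjusted p = 0.000260). Cxcl2 (MIP-2) was at 0.0989, 0.155, 0 and 0.0455 CPM in WT and at 0.650, 0.576, 0.756 and 0.873 CPM in ANKO (log2 fold change 3.29, standard error 0.57, adjusted p = 0.000738). Neither gene overlapped between groups, and both calls were lost with the muscle covariate, at log2 fold changes of 2.05 (adjusted p = 0.0633) and 1.37 (adjusted p = 0.367). Without WT2 the log2 fold change of Cxcl2 was 3.88, and without WT3 and WT4 together it was 2.35.

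Cxcl15 (lungkine), known mainly from lung epithelium, was at 0.148, 0.116, 0.0914 and 0.773 CPM in WT and at 1.76, 11.6, 2.17 and 3.35 CPM in ANKO (log2 fold change 3.82, standard error 0.85, adjusted p = 0.00426). WT4 and ANKO2 each stood far above the rest of their group, and the log2 fold change was 5.22 without WT4 and 2.85 without ANKO2. Cxcl3 had 1 count and Cxcl5, another ligand of CXCR2, had 6 counts, all in ANKO. Cxcl3 carries the same 10-base kappaB-type letters as Cxcl1 and Cxcl2 and was close to undetected, and no effect of these letters was tested. Of 9 listed neutrophil markers, Ly6g had no count and only Csf3r and Ltf could be tested, both of them higher (0.736 to 7.36 CPM and 1.30 to 3.08 CPM). The list summed to 1.74 to 3.86 CPM in WT and 8.75 to 12.8 CPM in ANKO, and the part of neutrophils was not tested.

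The ligands of CXCR3, which are induced by interferon and attract activated T and NK cells, both rose. Cxcl10 (IP-10) was at 3.96, 2.44, 2.13 and 2.55 CPM in WT and at 15.9, 17.5, 16.6 and 16.6 CPM in ANKO, a tight group well above WT (log2 fold change 2.60, standard error 0.19, adjusted p = 2.80e-06). Art3 on the opposite strand, which fell from 128 to 79.8 CPM, overlaps 8.75% of the exonic bases of Cxcl10. Part of the Cxcl10 level, and of its ratio to Cxcl9, is uncertain unless the counting used strand. Cxcl9 (MIG) was at 18.9, 16.1, 9.88 and 8.68 CPM in WT and at 36.5, 48.4, 36.3 and 38.1 CPM in ANKO (log2 fold change 1.58, standard error 0.24, adjusted p = 0.000405). The groups were again separate, but with the muscle covariate Cxcl9 was no longer called (0.70 on the log2 scale, adjusted p = 0.0866), while Cxcl10 kept it (2.31, adjusted p = 0.00136). Cxcl9 was the ligand of the pair with more reads per length in every library, at 1.78 to 3.46 times the RPKM of Cxcl10 in WT and 1.14 to 1.45 times in ANKO. Cxcl11, a further CXCR3 ligand in other strains, is annotated as a polymorphic pseudogene and is no member of the set. Its means were 2.47 CPM for WT and 2.60 CPM for ANKO, and it was not called (log2 fold change 0.08, standard error 0.30).

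Both ligands that are made as membrane-anchored proteins rose. Cxcl16, the ligand of CXCR6 and a scavenger receptor of macrophages, was at 2.92, 2.87, 3.60 and 3.50 CPM in WT and at 16, 13.9, 14.6 and 15.1 CPM in ANKO, the smallest standard error of the higher ligands (log2 fold change 2.21, standard error 0.13, adjusted p = 9.53e-07). Of its exonic bases 18.3% overlap Zmynd15 on the opposite strand, which itself rose from 0.922 to 4.74 CPM, and the reads of such a pair are told apart only if the counting used strand. Cx3cl1 (fractalkine), which tethers cells that carry CX3CR1, was at 7.12, 6.05, 4.79 and 6.75 CPM in WT and at 9.86, 9.90, 8.50 and 13.2 CPM in ANKO. Its groups did not overlap (log2 fold change 0.74, standard error 0.18, adjusted p = 0.00519), and the call was lost with the muscle covariate (0.66, adjusted p = 0.176).

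The homeostatic ligand Cxcl12 (SDF-1), which holds leukocytes and progenitors in tissue through CXCR4, was the most abundant ligand of WT and was not called. It was at 138, 133, 159 and 129 CPM in WT and at 150.2, 152, 159 and 173 CPM in ANKO (log2 fold change 0.18, standard error 0.10, adjusted p = 0.143), and WT3 lay among the ANKO libraries. It was called under upper quartile scaling (log2 fold change 0.27, adjusted p = 0.0393), which moved the median of all genes from -0.01 to 0.08. Cxcl13, the B cell attractant of lymphoid follicles, was at 0.247, 0.194, 0.213 and 0.341 CPM in WT and at 0.535, 0.691, 2.36 and 0.728 CPM in ANKO (log2 fold change 2.01, standard error 0.52, adjusted p = 0.00745). ANKO3 was the highest by far, and without it the log2 fold change was 1.26, while with the muscle covariate the call was lost (2.35, adjusted p = 0.136). Beside it, the B and plasma cell list summed to 7.92 to 14.5 CPM in WT and 177 to 503 CPM in ANKO, with the highest value also in ANKO3, 5 of 6 tested genes higher and 1 not called, and their part was not tested. Ccl19, a ligand of CCR7, had 3 counts in WT and 17 in ANKO (means of 0.0230 and 0.315 CPM), and the Ccl21 copies had none.

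Of the 3 tested mucosal and skin ligands 2 were lower and 1 was not called. Ccl25, the thymus and gut ligand of CCR9, was at 4.70, 5.01, 5.52 and 6.34 CPM in WT and at 3.33, 3.57, 3.68 and 3.49 CPM in ANKO, all ANKO libraries below all WT libraries (log2 fold change -0.62, standard error 0.16, adjusted p = 0.00657). It lost the call with the muscle covariate (-0.31, adjusted p = 0.410) and without WT3 and WT4 (-0.48, adjusted p = 0.0516). Ccl27a, a skin ligand of CCR10, was at 3.26, 4.11, 2.29 and 2.59 CPM in WT and at 1.87, 1.73, 1.51 and 2.62 CPM in ANKO, where ANKO4 overlapped WT (log2 fold change -0.68, standard error 0.26, adjusted p = 0.0429). Its call was lost without WT1, WT2, ANKO1, ANKO2 or ANKO3, and 45.0% of its 50-base stretches also occur in other gene models, so its level is uncertain. Ccl28, a mucosal ligand of CCR10 and CCR3, was not called at 1.45 ± 0.136 CPM for WT and 0.991 ± 0.494 CPM for ANKO (n = 4 each, SD; adjusted p = 0.157). Ccl20, the ligand of CCR6, had 1 count, and Ccl27b had none.

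Of the remaining ligands, Cxcl14, which is made by adipocytes and epithelia and has no settled receptor, was abundant and not called. It was at 25.5, 30.1, 25.7 and 24.3 CPM in WT and at 28.1, 29.2, 29.8 and 34.6 CPM in ANKO (log2 fold change 0.20, standard error 0.10, adjusted p = 0.121), with WT2 above 3 of the ANKO libraries. Cxcl17, a mucosal chemokine, was at 0.989 to 2.04 CPM in WT and 0.437 to 1.73 CPM in ANKO and was not called either (log2 fold change -0.35, adjusted p = 0.418). Xcl1 (lymphotactin), a product of T and NK cells that binds XCR1, had 8 counts in WT and 41 in ANKO (means of 0.0620 and 0.788 CPM) and was not tested.

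**Figure D2:**
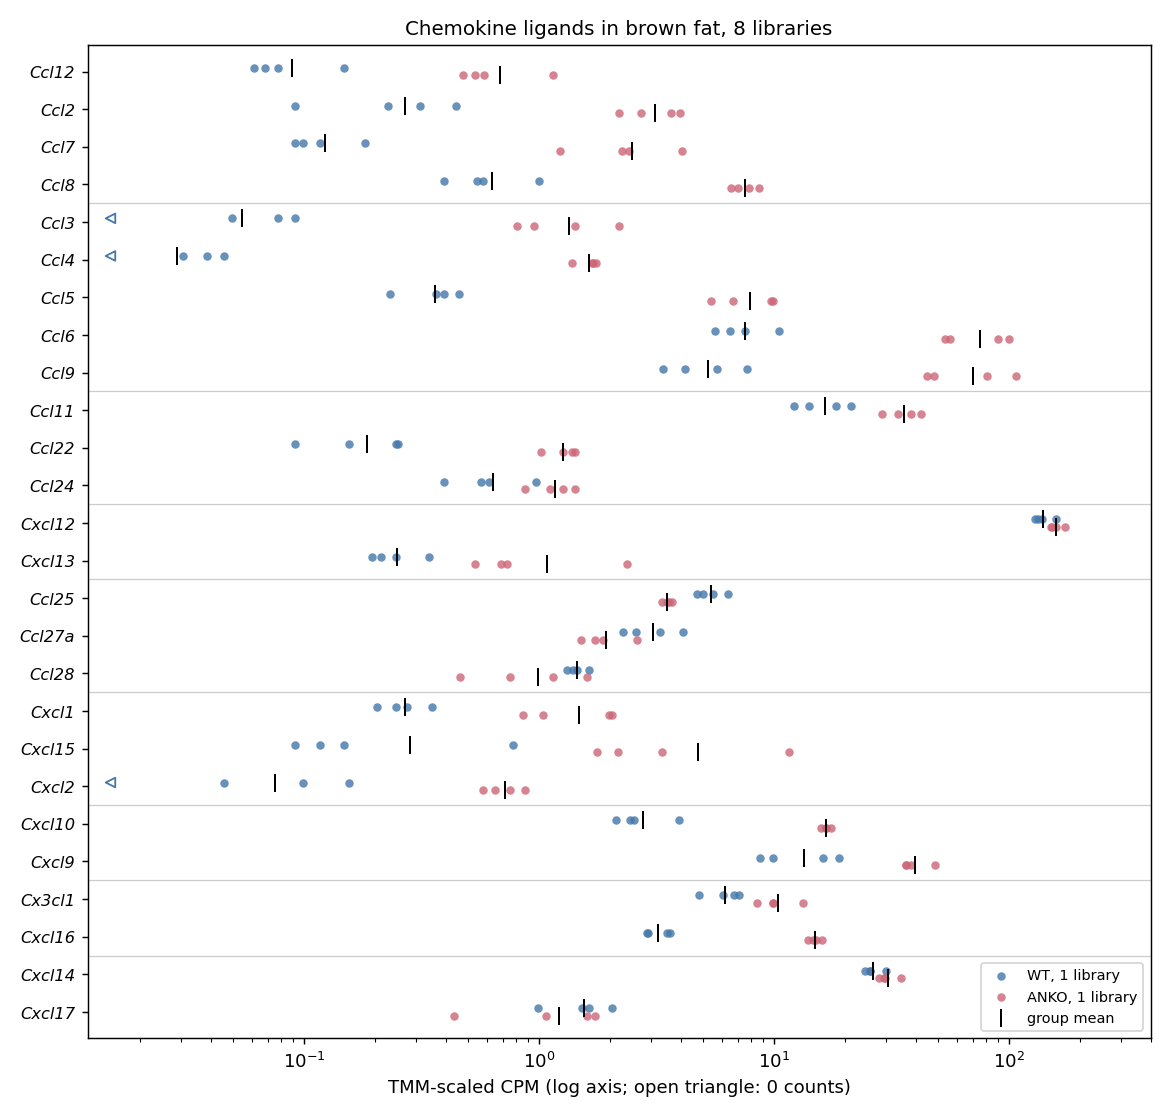
TMM-scaled CPM of the tested ligands on a log axis, 1 point per library for WT (blue) and ANKO (red), with group means as black ticks and open triangles for libraries with 0 counts. The red points lie to the right of the blue ones in the blocks from Ccl12 to Ccl9. In Cxcl12, Cxcl14, Cxcl17, Ccl24, Ccl27a and Ccl28 the groups overlap, and Ccl25 lies to the left.

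Among the receptors of CC ligands, Ccr1, Ccr2 and Ccr7 rose, Ccr10 fell and Ccr9 was not called. Ccr2, the monocyte receptor of Ccl2, was at 7.76, 4.66, 3.75 and 5.64 CPM in WT and at 37.2, 37.9, 27.9 and 38.0 CPM in ANKO (log2 fold change 2.70, standard error 0.21, adjusted p = 4.52e-06). The groups were separate by a wide gap. Ccr1, the receptor of Ccl6 and Ccl9 on myeloid cells, went from 0.283 ± 0.111 CPM to 3.14 ± 1.17 CPM (n = 4 each, SD; log2 fold change 3.46). Ccr7, which guides dendritic cells and naive T cells to lymph nodes, went from 0.394 ± 0.185 CPM to 4.12 ± 1.11 CPM (log2 fold change 3.48). Neither overlapped, and neither passed the count filter in every WT library.

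Ccr10, the receptor of Ccl27a and Ccl28 on skin and mucosal lymphocytes, went the other way. It was at 17.5, 16.6, 13.4 and 12.1 CPM in WT and at 3.82, 4.03, 4.35 and 4.22 CPM in ANKO, so that every ANKO library was below every WT library (log2 fold change -1.86, standard error 0.16, adjusted p = 6.75e-06). The call held with the muscle covariate (-2.31, adjusted p = 7.30e-05). Beside it, T cell markers summed to 3.56 to 5.39 CPM in WT and 32.0 to 57.1 CPM in ANKO, with 9 of 9 genes higher. The B and plasma cell list summed to 7.92 to 14.5 CPM in WT and 177 to 503 CPM in ANKO, with 5 of 6 tested genes higher. The part of those lymphocytes was not tested. Ccr9, the gut-homing receptor of Ccl25, was at 3.91, 2.41, 2.19 and 2.11 CPM in WT and at 3.10, 3.34, 3.68 and 3.49 CPM in ANKO. WT1 was the highest library of all, and without it the gene was called (log2 fold change 0.58, adjusted p = 0.0204, against 0.37 and 0.199 with it). The untested receptors of this class had few counts over the 4 WT and the 4 ANKO libraries, which differ in depth. Ccr3, the eosinophil receptor, had 21 and 22 counts (means of 0.180 and 0.474 CPM), Ccr4 6 and 27 (0.0513 and 0.396 CPM), Ccr6 3 and 31 (0.0237 and 0.534 CPM), Ccr8 5 and 11 (0.0324 and 0.204 CPM), and Ccr1l1 0 and 9 (0 and 0.174 CPM).

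The 6 tested receptors of CXC, CX3C and XC ligands all rose. Cxcr4, the receptor of Cxcl12 on leukocytes and progenitors, was the most abundant of them per gene length in ANKO, while in WT the mean of Cxcr6 was slightly higher. It was at 1.48, 2.79, 2.65 and 3.50 CPM in WT and at 17.5, 15.5, 23.8 and 15.6 CPM in ANKO (log2 fold change 2.77, standard error 0.25, adjusted p = 1.02e-05). Cxcr3, the T and NK cell receptor of Cxcl9 and Cxcl10, was at 0.396, 0.582, 0.640 and 0.659 CPM in WT and at 7.57, 6.10, 6.05 and 3.35 CPM in ANKO (log2 fold change 3.32, standard error 0.28, adjusted p = 7.02e-06). Neither gene overlapped between the groups. Cx3cr1, the fractalkine receptor of monocytes and resident macrophages, went from 1.05 ± 0.526 CPM to 3.98 ± 1.45 CPM (n = 4 each, SD; log2 fold change 1.99, adjusted p = 0.00102) and lost its call with the muscle covariate (1.45, adjusted p = 0.140).

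Cxcr6, the receptor of Cxcl16 on T and NK cells, went from 2.83 ± 0.744 CPM to 6.73 ± 0.924 CPM (log2 fold change 1.25, adjusted p = 0.000642). Xcr1, which marks cross-presenting dendritic cells, went from 0.404 ± 0.133 CPM to 1.74 ± 0.537 CPM (log2 fold change 2.13, adjusted p = 0.000357). Cxcr5, the B cell receptor of Cxcl13, went from 0.720 ± 0.186 CPM to 1.51 ± 0.608 CPM (n = 4 each, SD; log2 fold change 1.11, adjusted p = 0.0139), and ANKO4 overlapped WT. Its call was lost with the muscle covariate (adjusted p = 0.415) and without WT3 and WT4 (adjusted p = 0.122). The neutrophil receptors Cxcr1 and Cxcr2 were not tested, with 6 and 7 counts in WT (means of 0.0421 and 0.0496 CPM) and 8 and 9 in ANKO (0.117 and 0.195 CPM).

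The atypical receptors did not move as one. Ackr3 (CXCR7), which binds and internalises CXCL12, was the most abundant receptor of WT brown fat and fell. It was at 149.5, 163, 169 and 203 CPM in WT and at 28.8, 27.1, 32.0 and 18.8 CPM in ANKO, where the highest ANKO library was far below the lowest WT library (log2 fold change -2.67, standard error 0.17, adjusted p = 1.05e-06). The value ranged from -2.78 to -2.38 over all alternatives, the muscle covariate included. Ackr4, which scavenges Ccl19, Ccl21 and Ccl25, was at 26.4, 23.7, 18.3 and 16 CPM in WT and at 8.68, 7.83, 9.45 and 8.30 CPM in ANKO, again without overlap (log2 fold change -1.29, standard error 0.17, adjusted p = 0.000123). Of its exonic bases 9.06% overlap Acad11 on the other strand, which fell from 386 to 133 CPM, so part of the Ackr4 level is uncertain unless strand was used. Beside both, 9 of 10 brown adipocyte genes were lower and 1 was not called, and of 10 blood endothelial genes 4 were lower, 5 not called and Vwf higher (1207 to 1374 CPM in WT and 962 to 1061 CPM in ANKO, summed). The part of those cells was not tested.

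Ackr1 (the Duffy antigen receptor), which carries chemokines across venules, rose from 0.754 ± 0.223 CPM to 2.61 ± 0.341 CPM (n = 4 each, SD; log2 fold change 1.84, adjusted p = 0.000200), and 20.4% of its 50-base stretches occur in another gene model. Ackr2, the scavenger of inflammatory CC ligands known from lymphatic vessels, was at 0.544, 0.543, 1.04 and 1.16 CPM in WT and at 1.68, 0.806, 2.55 and 3.35 CPM in ANKO, with ANKO2 among the WT values (log2 fold change 1.26, adjusted p = 0.0240). The call of Ackr2 was lost without WT1, WT2, ANKO3 or ANKO4. Ccrl2, which binds chemerin without signalling, rose from 1.88 ± 0.550 CPM to 7.72 ± 2.49 CPM (log2 fold change 2.07, adjusted p = 0.000242). Cmklr1, the chemerin receptor of macrophages and adipocytes, rose from 16.3 ± 2.95 CPM to 29.2 ± 3.20 CPM (n = 4 each, SD; log2 fold change 0.83, adjusted p = 0.000569). Ackr1 and Ccrl2 lost their calls with the muscle covariate, at log2 fold changes of 1.25 (adjusted p = 0.0730) and 1.28 (adjusted p = 0.0782).

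**Figure D3:**
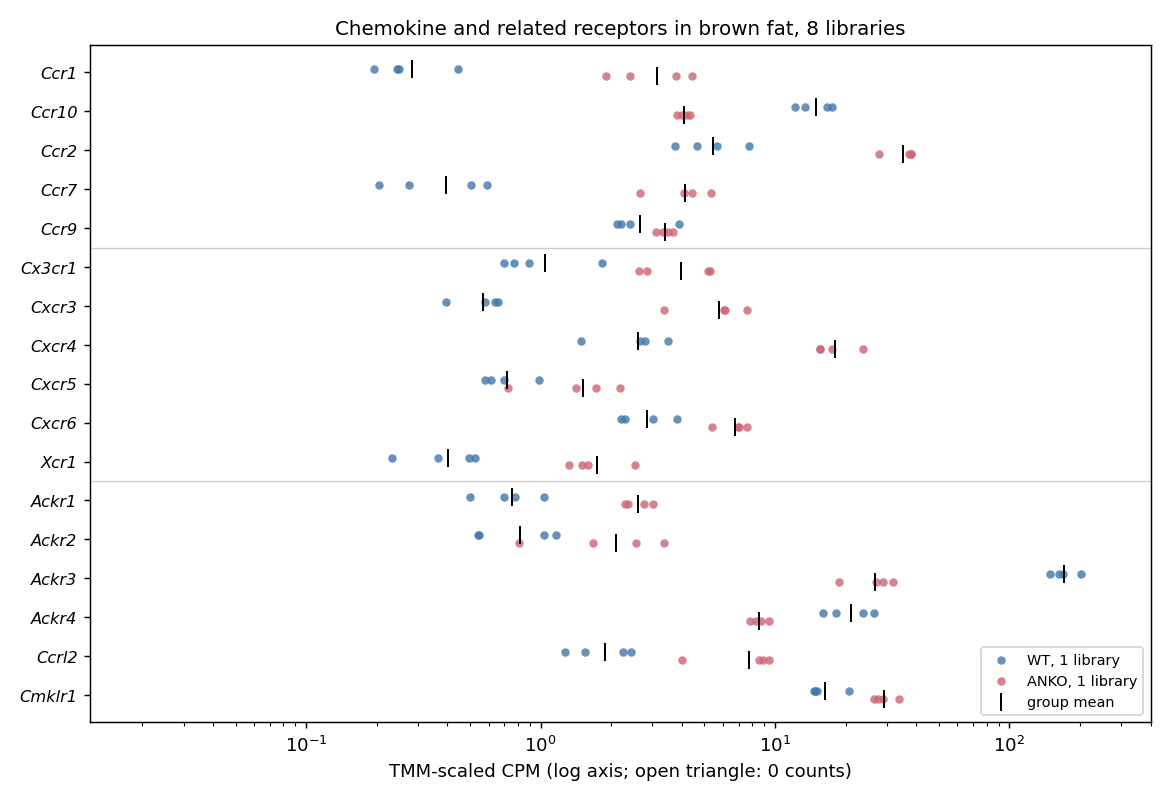
TMM-scaled CPM of 17 tested receptors on a log axis, 1 point per library for WT (blue) and ANKO (red), with group means as black ticks. Ccr10, Ackr3 and Ackr4 are the receptors whose ANKO points all lie to the left of the WT points, while Ccr9, Cxcr5 and Ackr2 overlap.

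Levels of different genes were compared per gene length, as mean RPKM, reads per kilobase of gene length scaled like CPM. In WT the ligand transcripts were mostly Cxcl12 (17.1 RPKM), Ccl11 (15.2 RPKM) and Cxcl14 (14.5 RPKM), followed by Cxcl9 at 4.62 RPKM and Ccl6 at 4.19 RPKM. In ANKO the order was Ccl6 (41.7 RPKM), Ccl11 (33.1 RPKM), Ccl9 (23.1 RPKM), Cxcl12 (19.4 RPKM) and Cxcl14 (16.7 RPKM). The SDs of neighbours in these orders often overlap, as for Cxcl12, Ccl11 and Cxcl14 in WT. Within the group of Ccl2, Ccl7, Ccl8 and Ccl12 the largest level in ANKO was that of Ccl8 at 14.7 RPKM, whereas Ccl2 reached 2.75 RPKM. Summed over the ligands, the level was 66.7 to 75.7 RPKM in WT and 187 to 249.8 RPKM in ANKO.

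**Figure D4:**
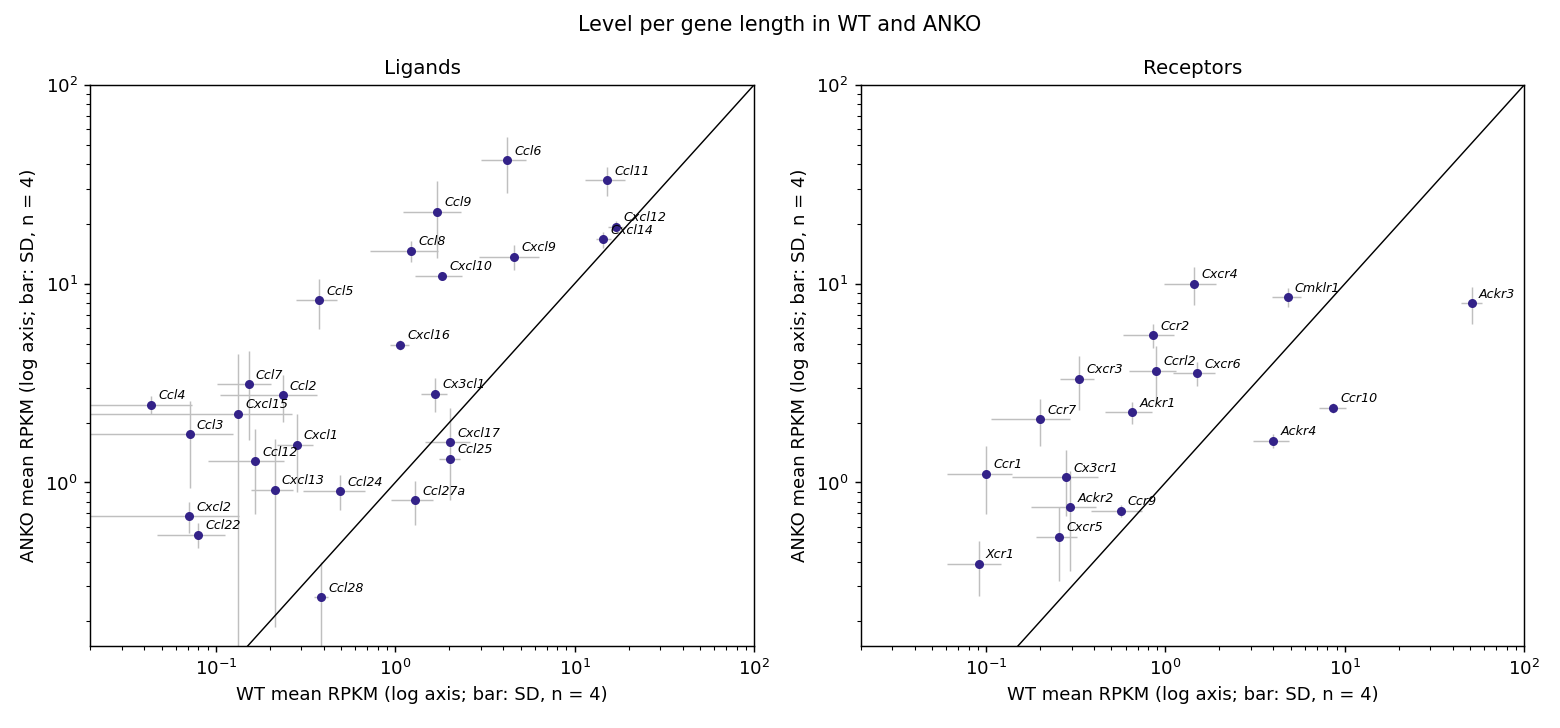
Mean RPKM in ANKO against mean RPKM in WT, both on log axes, for ligands (left) and receptors (right), with bars of 1 SD (n = 4 each) and a line of equality. Ccl6 stands highest among the ligands of ANKO at 41.7 RPKM, and Ackr3 stands farthest below the line, at 51.1 RPKM in WT and 7.96 RPKM in ANKO.

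Summed receptor transcripts did not follow the ligands. Their level was 72.8 to 84.2 RPKM in WT and 55.5 to 67.5 RPKM in ANKO, lower in every ANKO library than in any WT library although 14 of 18 tested receptors were higher. In WT, Ackr3 alone gave 61.3% to 71.9% of the sum, followed by Ccr10 at 8.34% to 13.9%. In ANKO, Ackr3 gave 9.39% to 14.6%, and Cxcr4 gave 14.4% to 19.5%. For the pair of receptors that share CXCL12, the ratio of Cxcr4 to Ackr3 was 0.0184 to 0.0320 in WT and 1.06 to 1.54 in ANKO, while their ligand Cxcl12 was not called. The ratio of Ccl6 to Cxcl12 went from 0.185 to 0.371 in WT to 1.61 to 2.65 in ANKO. These ratios were chosen after the values had been seen and carry no test.

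**Figure D5:**
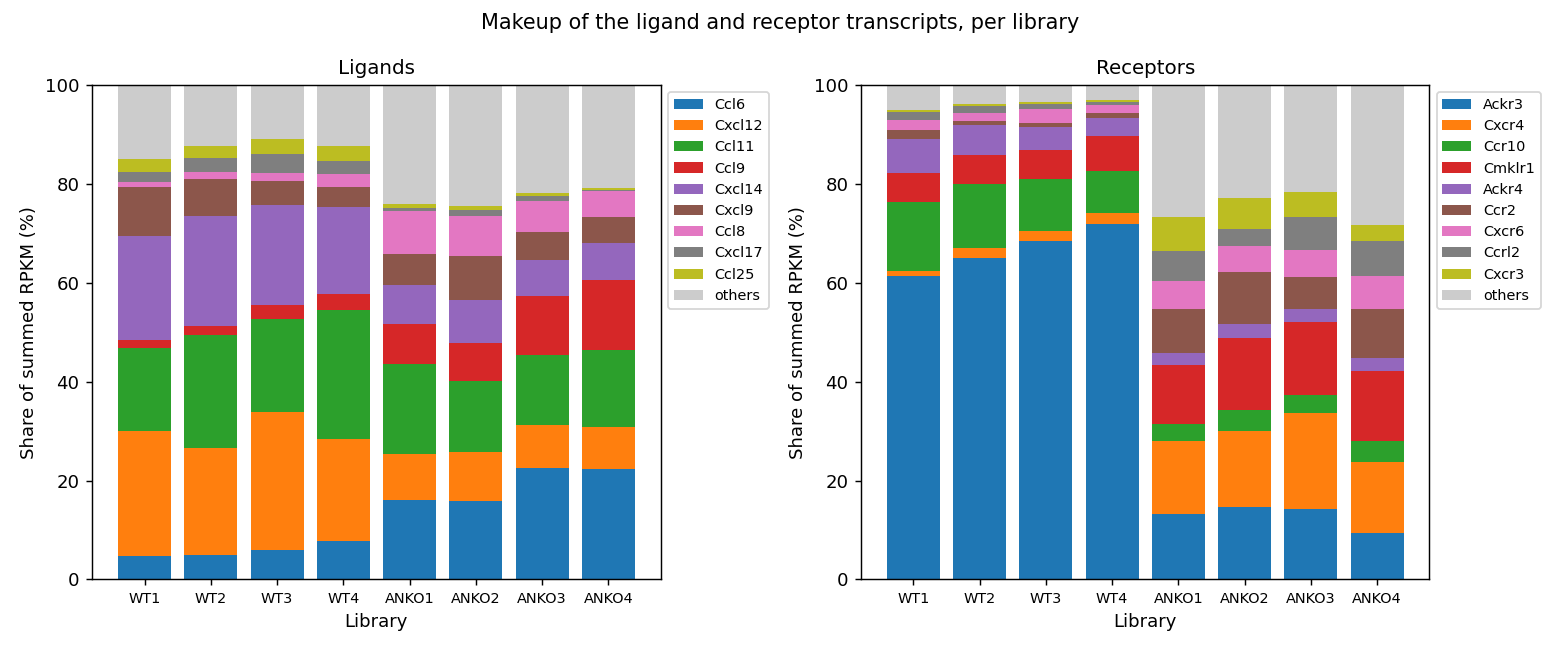
Share of the summed RPKM, in percent, that each named gene gave in each library, for ligands (left) and receptors (right), with other genes in grey. Ackr3 fills 61.3% to 71.9% of the receptor bar in the 4 WT libraries and 9.39% to 14.6% in the 4 ANKO libraries.

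The CC ligands on chromosome 11 lay in 2 runs, which were described beside their other neighbours within 500 kb. Cxcl16 and Ccr7, both higher, and Ccr10, which was lower, lie elsewhere on that chromosome. In the run from Ccl2 to Ccl1 (chr11:82035571-82305690) 5 of 5 tested members were higher, while of 6 neighbouring tested genes 1 was higher, 1 lower and 4 not called. In the run from Ccl5 to Ccl4 (chr11:83525778-83664683) 5 of 5 members were higher, and of 22 neighbours 13 were higher, 3 lower and 6 not called. The median log2 fold change was 1.11 for the neighbours of that second run and 4.44 for its members. On chromosome 5, the 3 tested ELR ligands were all higher and 2 of 9 neighbours were, and Cxcl9 and Cxcl10 were both higher where 2 of 16 neighbours were. On chromosome 9 the receptor run that begins with Ccr9 had 5 of 6 tested members higher and Ccr9 not called, beside 2 of 9 neighbours higher. In the run on chromosome 4 the 1 tested member, Ccl27a, was lower, and of 29 neighbours 7 were higher and 8 lower. Every tested member was higher in the runs of Ccl24 and Ccl26, of Ccl22, Cx3cl1 and Ccl17, and of Cx3cr1 and Ccr8. Beside them 5 of 22, 6 of 23 and 3 of 18 neighbours were higher. The run of Cxcr1 and Cxcr2 had no tested member. The ligands Ccl2, Ccl3, Ccl4, Ccl5, Ccl7, Ccl8, Ccl12, Ccl22, Ccl24, Cxcl1, Cxcl2 and Cxcl15 passed the count filter with the help of ANKO libraries. So did the receptors Ccr1 and Xcr1. That route favours genes with more reads in ANKO, and the neighbours were not split by it, so the contrast with neighbours carries no test. The grouping into runs was made after the values had been seen.

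Most tested leukocyte markers were higher in ANKO than in WT, where 30.6% of all tested genes were. The order of the ANKO libraries differed between lists. The macrophage and the B and plasma cell sums were highest in ANKO3 and the T cell sum in ANKO1. Higher members were most often highest in ANKO4 (13 of 34). Of 15 macrophage genes 14 were higher and Cd163 was not called, and their summed level was 191 to 280.5 CPM in WT and 1353 to 1874 CPM in ANKO, where Lyz2 and Mpeg1 led. The median log2 fold change of that list was 3.24. Above it lay 14 members, among them Ccl2, Ccl3, Ccl4, Ccl5, Ccl6, Ccl7, Ccl8, Ccl9, Cxcl2, Cxcl15, Ccr1, Ccr7 and Cxcr3, and 20 higher members lay below it. Of those named, only Ccl6 and Ccl9 passed the count filter in all 4 WT libraries. The rest passed by the route that favours genes with more reads in ANKO, so this order carries no test. All 3 tested monocyte genes were higher (0.989 to 1.82 CPM and 33.5 to 38.9 CPM, summed), as were 7 of 8 dendritic cell genes (86.0 to 111 CPM and 166 to 211 CPM), of which Zbtb46 was lower. Of 8 NK and cytotoxic genes 7 were higher (3.02 to 4.99 CPM and 24.8 to 30.8 CPM), and of the 4 listed eosinophil genes 1 could be tested and was higher (0.213 to 0.310 CPM and 1.11 to 2.46 CPM). Mast cell genes were higher in 4 of 5 tested (14.6 to 48.5 CPM and 49.9 to 84.9 CPM), and lymphatic genes were higher in 2 and lower in 1 of 5 tested, with Pdpn at 0. The part of each of these cell types in the members' differences was not tested.

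Genes that work with chemokines were counted from lists, and over all tested genes 30.6% were called higher and 27.6% lower. Of 12 tested genes for other chemoattractants and their receptors, 7 were higher, 2 lower and 3 not called. The smallest p-values were those of C3ar1, the complement C3a receptor (3.11 to 58.5 CPM), Pf4, a platelet CXC chemokine named outside the symbol rule (3.53 to 11 CPM), and C5ar1, the C5a receptor (2.37 to 23.6 CPM). The lower ones were S1pr1, the lymphocyte egress receptor (145 to 99.6 CPM), and Ppbp, a platelet chemokine (1.80 to 0.644 CPM). Rarres2, which encodes chemerin, the ligand of Cmklr1 and Ccrl2, rose from 14.6 to 29.9 CPM and is named outside the rule for its link to those receptors.

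Of 23 genes for receptor signalling and desensitisation, 15 were higher, 4 lower and 4 not called. Rac2, Dock2 and Vav1, which drive leukocyte migration downstream of chemokine receptors, rose with log2 fold changes of 3.57, 3.57 and 3.32. The lower ones were the receptor kinase Grk3 (log2 fold change -1.73), Rgs2 (-1.61), which limits G protein signals, Plcb3 (-0.64) and Gnb2 (-0.40). Of 11 leukocyte integrins, selectins and their ligands, 8 were higher and 3 not called. Itga4 rose from 13.6 to 66.3 CPM, Itgal from 1.73 to 17.9 CPM and Selplg from 2.57 to 30.9 CPM, all of them adhesion molecules of leukocytes.

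Of 24 tested transcription factors and cytokine inputs known to induce chemokines, 14 were higher, 5 lower and 5 not called. The interferon regulatory factors Irf7 and Irf5 rose from 10.2 to 176 CPM and from 3.74 to 27.5 CPM, and Stat2 rose from 23.7 to 63.8 CPM. The lower genes were Nfkbiz, Irf3, Tnfrsf1a, Myd88 and Ifngr1, with log2 fold changes of -0.98, -0.54, -0.81, -0.52 and -0.31. Rela and Nfkbia, the NF-kappaB subunit p65 and its inhibitor, were not called at log2 fold changes of -0.01 and 0.02, and both were named after their values had been seen. Of 15 tested proteases and heparan sulfate genes that trim or anchor chemokines, 9 were higher, 3 lower and 3 not called. Mmp14, Sdc3 and Gpc1 rose with log2 fold changes of 2.71, 1.72 and 2.61, and Ndst1, Sdc4 and Mmp9 fell, with log2 fold changes of -0.48, -2.99 and -0.96. Mmp12, an elastase of macrophages, had a WT mean of 0.638 CPM and an ANKO mean of 181 CPM and was named after its value had been seen.

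Of the 25 members that were not tested, 11 had no count in any library and 14 had between 1 and 49 counts. A count of 0 allows a level of up to 3 counts, which is 0.0682 to 0.148 CPM in the WT libraries and 0.115 to 0.437 CPM in the ANKO libraries. The rows without counts were Ccl21a, Ccl21b, Ccl26, Ccl27b and the 7 rows on unplaced sequence. Near-identical copies could have lost their reads in counting, since 71.6% of the 50-base stretches of Ccl21a and every one of Ccl21b occur in other gene models. Ccl19 shares 52.0% of its stretches in the same way, so its few counts are uncertain too.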

How the data were processed

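Brown fat of 4 WT and 4 ANKO mice was profiled by RNA-seq. The authors deposited, per library and per the file headers, a count, a CPM and an RPKM for each gene identifier. Per the submitters' processing notes the tools included STAR 2.0.4b and featureCounts 1.45 (Subread) with the build GRCm38, and the sources used here give no strand or multi-mapping setting. The deposited CPM equalled the count divided by the total, and the deposited RPKM equalled that CPM divided by length. Identifiers were paired with GENCODE M21 symbols (40340 of 41388 matched), and 355 ribosomal RNA rows were left out. Such rows made up 2.83%, 3.15%, 3.47% and 3.53% of WT1, WT2, WT3 and WT4. For ANKO1, ANKO2, ANKO3 and ANKO4 the shares were lower without overlap, at 0.979%, 0.992%, 1.13% and 0.801%. This share therefore moves together with genotype, and what lies behind it was not tested.

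Counts were fitted with edgeR 4.0.16 (R 4.3.3) over all genes: filterByExpr, TMM scaling, robust quasi-likelihood F test of ANKO against WT without covariates, Benjamini-Hochberg adjustment over 16705 genes, threshold 0.05. Every adjusted p in the text is from this test unless another is named. CPM in the text is TMM-scaled without ribosomal rows, RPKM is that CPM per kilobase, and the standard error is the absolute log2 fold change over the root of F. The biological coefficient of variation was 20.6%. On simulated counts for this comparison (16390 genes, of which 193 were changed) the script recovered 95.0% of 4-fold and 65.2% of 2-fold changes, with 4.88% of calls false. In the real data 58.2% of tested genes were called, so these rates check the script and do not carry over to the calls here. Counts are of reads that may include PCR copies, so floors of 3 counts cover counting error only. The labels' replicate numbers did not pair the libraries: correlations of same-numbered deviations were 0.11, -0.01, 0.07 and -0.05.

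The values of 1 tested member are not reported here, although counts and sums over the set include it. The members, role lists, partner lists and marker lists were chosen with earlier results of these data known. In each role list, values per library are given for the tested members with the smallest p and the highest mean RPKM and for members against the direction of most. Partner lists name at most 3 called members, by p, and each member called the other way, while marker lists are given by their summed level. Motifs, runs of neighbours, ratios and the split by filter were chosen after values had been seen. Alternatives were other scaling (RLE, upper quartile), other filters, DESeq2 1.42.0, limma-voom 3.58.1, a replicate block, each library left out, protein-coding nuclear genes alone, the mean log2 muscle marker level as covariate, counts thinned to the lowest total, and pairs of libraries left out.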

Additional observations from a re-analysis of the deposited data

Results flagged for a closer look

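A library was picked out where its gap to the nearest library of its group exceeded Dixon's critical value at the 95% level for 4 samples. This held in 11 of 90 groups of 4 libraries, and chance picks about 1 in 20. In ANKO2, Ccl12 was the highest of its group at 1.15 CPM (the others 0.472 to 0.582), Cxcl15 the highest at 11.6 CPM (1.76 to 3.35), Cxcl9 the highest at 48.4 CPM (36.3 to 38.1) and Ccrl2 the lowest at 4.03 CPM (8.52 to 9.45). In ANKO3, Cxcl13 was the highest at 2.36 CPM (0.535 to 0.728) and Ccr2 the lowest at 27.9 CPM (37.2 to 38.0). In WT1, Ccr9 was the highest at 3.91 CPM (2.11 to 2.41) and Cx3cr1 the highest at 1.83 CPM (0.701 to 0.892). In WT4, Cxcl15 was the highest at 0.773 CPM (0.0914 to 0.148) and Cmklr1 the highest at 20.8 CPM (14.7 to 15.1). Nampt was highest in WT3, at 571 CPM (483 to 494).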

How the results depend on the processing

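The count of higher members was 34, and it was 22 with the muscle level added as covariate and 22 when counts were thinned to the lowest total, where 30 members could be tested. Over the other scalings, filters and tools it was 28 to 39, and with each library left out 32 to 34. The count of lower members was 5, and it was 3 in thinned counts, 4 to 5 with each library left out, and 3 without ANKO1 and ANKO2, a setting chosen after seeing the data, like that without WT3 and WT4 (34 higher, 4 lower). The genes called in the whole table were 9726, but 4065 with the muscle covariate and 9047 to 10467 with each library left out. The log2 fold change of Nampt was -2.86 to -2.76 with each library left out. With the muscle covariate Cxcl14 (-0.023) and Ccr9 (-0.10) changed sign, neither called in either fit, and 13 calls were lost: Ccl3, Ccl12, Ccl24, Ccl25, Cxcl1, Cxcl2, Cxcl9, Cxcl13, Cx3cl1, Cx3cr1, Cxcr5, Ackr1 and Ccrl2. The cause was not tested, and that level and the genotype move together. The numbers in the labels do not pair the libraries, and with them as a replicate block the counts were 34 higher, 4 lower and 9238 in the whole table, Ccl27a losing its call (adjusted p = 0.0625). Depth limits the rare members, most of all in ANKO4, where 3 counts are 0.437 CPM.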
